A study of Mus musculus with 6 samples.

Results

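The subject here is a set of 8 carriers of the SLC22 family, the organic cation, zwitterion and anion transporters of the cell surface: Slc22a3, Slc22a4, Slc22a5, Slc22a15, Slc22a17, Slc22a18, Slc22a21 and Slc22a23. Their rows were taken by gene symbol, 8 of 30037 named genes in the deposited table. The 8 genes were chosen on measured values of these same libraries, the wild-type against Prmt6 knockout contrast included, so their differences between genotypes are given as a description and without p-values. Poly(A) RNA had been sequenced from L-GMP cells, leukaemia cells with the surface of a granulocyte-macrophage progenitor, taken by sorting from the marrow of AML (acute myeloid leukaemia) mice aged 8 to 10 weeks. There were 3 libraries from WT (wild-type) leukaemia and 3 from Prmt6-/- leukaemia, called knockout below, and Prmt6 encodes an arginine methyltransferase. All 6 libraries came from mice with leukaemia, and the sources used here do not give the oncogene that drives it, the cells that carry the deletion or whether animals were pooled. The labels do not state that libraries of a genotype came from separate animals, so errors and p-values cover only how far these samples lie apart, and that spread may be technical.

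Carriers of the SLC22 family belong to the major facilitator superfamily and move small charged molecules across the plasma membrane. The organic cation transporters carry monoamines, histamine and many cationic drugs. The OCTN branch carries carnitine, which brings long-chain fatty acids into mitochondria, and the antioxidant ergothioneine, and the organic anion transporters are best known from kidney.

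Values below are the deposited expression levels on a log2 scale, normalized between libraries by the authors, and a difference is the knockout mean minus the wild-type mean on that scale. A gene entered the test where 3 or more libraries had a value of 1 or higher, limma was fitted over the whole table, and a gene is named called where its Benjamini-Hochberg adjusted p was under 0.05. Low genes are pulled together on this scale, so their differences are understated. The files give no gene-length correction of these levels, so genes are not ranked against each other by level. In bulk samples, fewer cells of a type and less RNA per cell cannot be told apart.

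Prmt6 itself was at 7.82, 7.60 and 7.41 in the wild-type libraries and at 5.42, 5.46 and 5.48 in the knockout libraries. All 3 knockout libraries lay below all 3 wild-type libraries, in the direction of their labels. The defining L-GMP markers Kit, Cd34 and Fcgr3 were present in both genotypes, with means of 10.14 and 9.85 for Kit, 10.44 and 10.47 for Cd34, and 13.28 and 13.30 for Fcgr3. Fcgr2b, the other Fc receptor gene of the CD16/32 gate, was also present but lower in the knockout, with means of 12.41 and 11.53 (limma adjusted p = 0.000507). Ly6a (Sca-1), which is low on granulocyte-macrophage progenitors, had means of 2.62 and 2.61.

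Of the 8 carriers, 4 were called higher in the knockout libraries (Slc22a3, Slc22a4, Slc22a5 and Slc22a15), 3 were tested and not called (Slc22a18, Slc22a21 and Slc22a23), and Slc22a17 was listed at 0 in every library. Slc22a3 had by far the widest gap, 2.12 on the log2 scale, against 0.60 for Slc22a4, 0.32 for Slc22a5 and 0.21 for Slc22a15. Of 15454 tested genes, 5102 (33.0%) were called, 2324 higher (15.0%) and 2778 lower (18.0%). Because this contrast took part in the choice of the 8 genes, nothing is read from their count beside those shares. limma called 0 of the 8 lower. For Slc22a18 and Slc22a21 all knockout libraries lay below all wild-type libraries, and the authors' deposited table called 0 lower. The median difference of the 7 tested carriers was 0.21, and the median over all tested genes was 0.0056. For the same reason nothing is read from these medians.

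**Figure D1:**
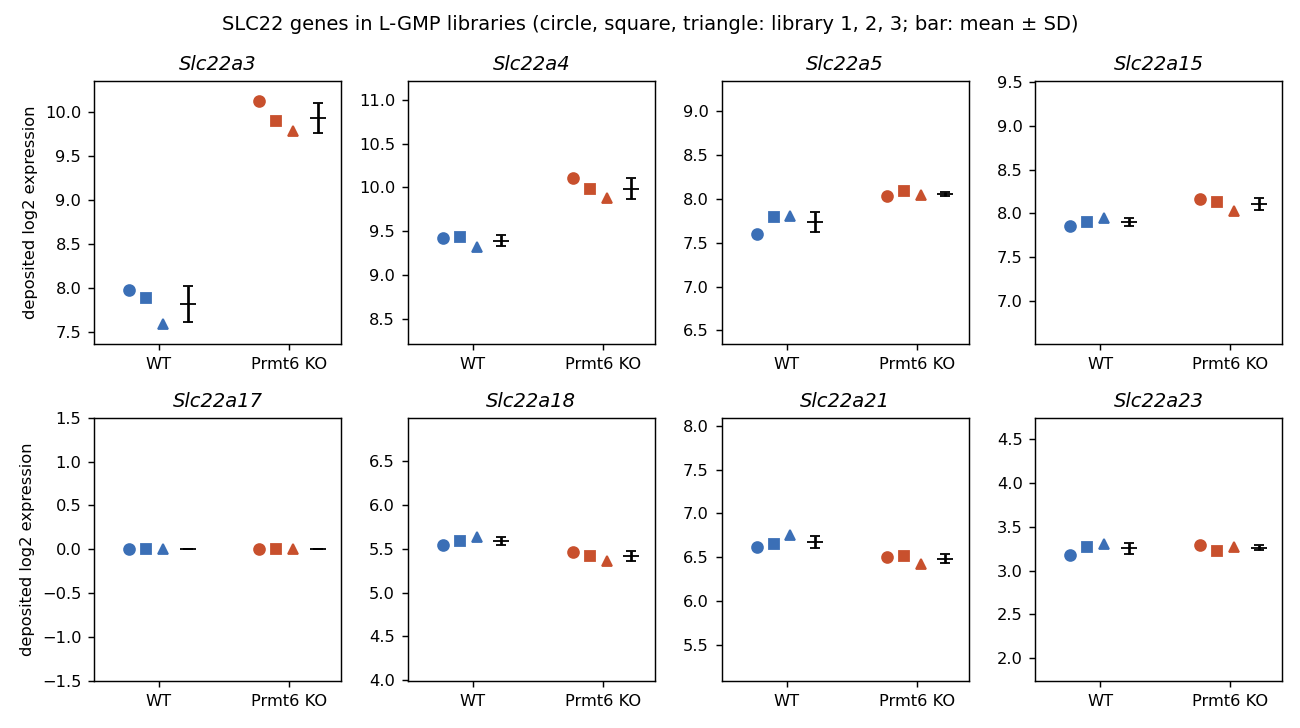
Deposited log2 level (vertical axis) of the 8 SLC22 carriers in each of the 3 wild-type and 3 knockout libraries; symbols are libraries and the bar beside them is the mean ± SD. The knockout libraries of Slc22a3 lie between 9.79 and 10.13, above the wild-type libraries at 7.59 to 7.97, and Slc22a17 is listed at 0 throughout.

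Slc22a3 encodes OCT3, the extraneuronal monoamine transporter, which takes up histamine, catecholamines and cationic drugs. The gene (ENSMUSG00000023828.3) spans chr17:12418960-12507704 on the minus strand of GRCm38, per GENCODE. Its level was 7.97, 7.89 and 7.59 in the wild-type libraries and 10.13, 9.90 and 9.79 in the knockout libraries. Every knockout library lay above every wild-type library, with 1.82 between the closest values of the genotypes. The means were 7.82 ± 0.20 and 9.94 ± 0.17 (SD, n = 3 each), a difference of 2.12 with a standard error of 0.115 and a 95% interval from 1.86 to 2.38, which is 4.36-fold on this scale. It had the eighth largest difference among the 2324 genes called higher, and 77 of those differed by at least 1. The authors' deposited table gave it a log2 fold change of 2.80. Exons of Slc22a3 share 420 bases with exons of Plg (plasminogen) on the opposite strand, and the sources used here do not give whether counting used strand. Plg was between -1.03 and -1.01 in all 6 libraries, near the bottom of the scale.

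Promoter windows are shown for the 3 carriers with the widest differences, to let their base composition be compared. They run from 250 bases before to 50 bases after the annotated start, 5′ to 3′ on the strand of the gene, from RefSeq on GRCm38.p6, which held 7 of the 8 carriers, not Slc22a21. The windows are chr17:12507655-12507954 for Slc22a3, chr11:54028055-54028354 for Slc22a4 and chr11:53891654-53891953 for Slc22a5, all on the minus strand. Capitals mark CAGGTG in Slc22a3, CACGTG in Slc22a4 and GGGCGG in Slc22a5, where it reads CCGCCC if it lies on the other strand. Each motif was searched on both strands.
Slc22a3: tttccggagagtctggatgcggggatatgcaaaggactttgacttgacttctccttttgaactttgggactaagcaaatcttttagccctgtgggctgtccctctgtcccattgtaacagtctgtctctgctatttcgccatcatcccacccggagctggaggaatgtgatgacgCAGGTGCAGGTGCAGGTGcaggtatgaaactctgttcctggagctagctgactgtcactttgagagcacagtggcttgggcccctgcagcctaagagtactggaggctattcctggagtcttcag
Slc22a4: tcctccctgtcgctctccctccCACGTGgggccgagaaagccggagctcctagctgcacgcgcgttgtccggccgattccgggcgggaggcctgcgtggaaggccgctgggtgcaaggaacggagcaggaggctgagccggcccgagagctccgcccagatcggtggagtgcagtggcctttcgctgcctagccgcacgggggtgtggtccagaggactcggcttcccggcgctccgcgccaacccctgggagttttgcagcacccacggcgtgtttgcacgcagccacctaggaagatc
Slc22a5: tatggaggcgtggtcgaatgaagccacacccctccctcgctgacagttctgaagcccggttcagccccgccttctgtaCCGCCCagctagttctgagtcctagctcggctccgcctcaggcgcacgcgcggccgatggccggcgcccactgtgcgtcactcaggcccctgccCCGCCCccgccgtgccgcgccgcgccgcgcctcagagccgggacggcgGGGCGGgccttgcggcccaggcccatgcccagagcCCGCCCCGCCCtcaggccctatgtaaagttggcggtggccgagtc
The window of Slc22a3 has 5 CpG dinucleotides and a GC content of 52.0%, against 29 CpG and 69.0% for Slc22a4 and 34 CpG and 72.7% for Slc22a5. Over all 32851 RefSeq promoter windows the medians were 7 CpG and 52.7% GC, so Slc22a3 sits near the middle and both OCTN genes lie well above it in CpG. Slc22a3 carries CAGGTG, an E-box, 3 times without a gap, starting at bases 176, 182 and 188 of the window. CAGGTG occurs in 20.2% of all windows, and at least 3 copies occur in 120 of them (0.365%). Slc22a4 has the E-box CACGTG at base 23, a motif held by 7.15% of windows, and 2 GC boxes. Slc22a5 has 5 GC boxes, GGGCGG, starting at bases 79, 173, 221, 256 and 261, where the last pair overlaps by 1 base, and 35.7% of windows hold this motif. None of these 3 windows holds TATAAA (13.6% of windows), CCAAT (37.4%) or CCGGAAG (8.86%). The motifs were chosen after the sequences had been seen, and a match is a description of letters, not a binding site.

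Slc22a4, Slc22a21 and Slc22a5 form the OCTN cluster on mouse chromosome 11 and lie in the same orientation. The first base of Slc22a21 lies 58.3 kb beyond the last of Slc22a5 on the chromosome. That of Slc22a4 lies 2.79 kb beyond the last of Slc22a21. The first neighbour pair is close kin in sequence: coding identity was 89.4% between Slc22a5 and Slc22a21, 76.4% between Slc22a4 and Slc22a5, and 73.5% between Slc22a4 and Slc22a21. Of all 31-base words in the transcripts of Slc22a5, 37.8% also occur in another gene (1172 of 3097, 1108 of them in Slc22a21). For Slc22a21 the share was 30.8% (1138 of 3700) and for Slc22a4 6.94%. Reads from such stretches can be split between Slc22a5 and Slc22a21 by the authors' counting, so both levels are uncertain to that extent. The longest coding run that both genes share is 157 bases within 1 exon of each, at chr11:53867528-53867684 in Slc22a5 and chr11:53953006-53953162 in Slc22a21, both minus strand of GRCm38, from GENCODE transcripts. It is printed to show what a short read could not assign. Capitals mark the identical run, and the lower case letters are the 12 coding bases on each side.
Slc22a5: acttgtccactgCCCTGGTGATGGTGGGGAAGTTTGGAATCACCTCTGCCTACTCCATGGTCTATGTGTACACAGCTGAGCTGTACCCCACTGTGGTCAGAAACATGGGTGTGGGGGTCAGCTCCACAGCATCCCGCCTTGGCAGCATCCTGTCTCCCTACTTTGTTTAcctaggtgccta
Slc22a21: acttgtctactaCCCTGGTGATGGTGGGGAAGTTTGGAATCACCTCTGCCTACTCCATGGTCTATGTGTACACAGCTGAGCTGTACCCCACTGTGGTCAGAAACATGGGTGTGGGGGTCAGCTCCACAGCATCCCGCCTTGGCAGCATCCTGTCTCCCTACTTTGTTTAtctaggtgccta

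Slc22a4 (ENSMUSG00000020334.6, chr11:53983123-54028090, minus strand) encodes OCTN1, the ergothioneine transporter. It stood at 9.42, 9.43 and 9.32 in wild type and at 10.11, 9.98 and 9.87 in the knockout. The genotypes did not overlap, with a gap of 0.44. The means of 9.39 ± 0.06 and 9.99 ± 0.12 (SD, n = 3 each) differed by 0.60 (standard error 0.0724, 95% interval 0.43 to 0.76), or 1.51-fold. In both Slc22a3 and Slc22a4, library 3 was the lowest of its genotype.

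Slc22a5 (ENSMUSG00000018900.7, chr11:53864542-53891660, minus strand) encodes OCTN2, the sodium-dependent high-affinity carnitine transporter. Its levels were 7.60, 7.79 and 7.81 in wild type and 8.04, 8.08 and 8.05 in the knockout. Here too the knockout libraries were all the higher ones, by 0.23 at the closest. The means, 7.73 ± 0.11 and 8.06 ± 0.03 (SD, n = 3 each), differed by 0.32 (standard error 0.0731, 95% interval 0.16 to 0.49), which is 1.25-fold.

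Slc22a21 (ENSMUSG00000063652.10, chr11:53949965-53980332, minus strand) encodes OCTN3, a carnitine carrier found in mice. It was at 6.62, 6.65 and 6.76 in wild type and at 6.51, 6.52 and 6.43 in the knockout. The order of the genotypes was the opposite of its chromosome neighbours, with no overlap, and limma did not call it. The difference was -0.19 (standard error 0.0661, 95% interval -0.34 to -0.04). In the authors' deposited table the log2 fold changes of the cluster were 0.74 for Slc22a4, 0.52 for Slc22a5 and -0.48 for Slc22a21.

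**Figure D2:**
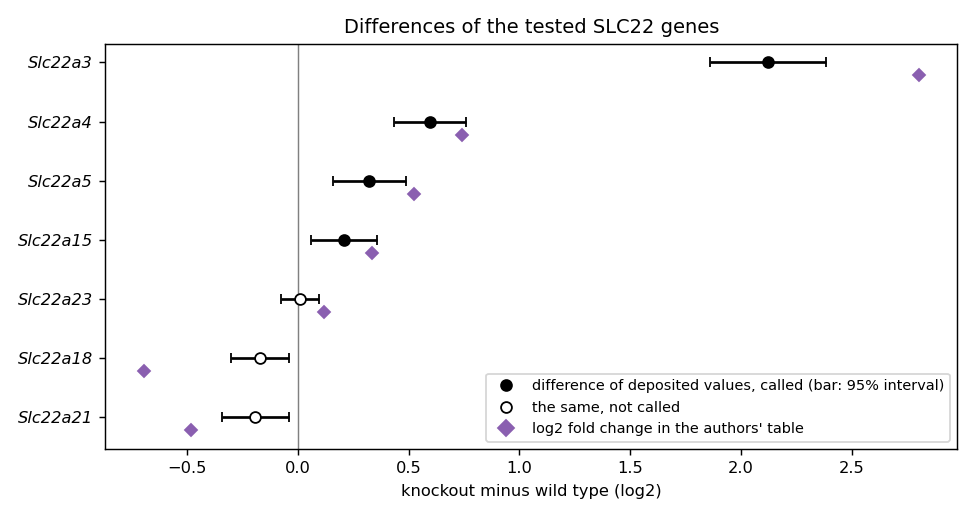
Knockout minus wild-type difference on the deposited log2 scale with its 95% interval for the 7 tested carriers, beside the log2 fold change of the authors' deposited table. Slc22a3 stands at 2.12 and 2.80, and the interval of Slc22a23 spans 0.

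Slc22a15 (ENSMUSG00000033147.16, chr3:101855776-101924453, minus strand) encodes a carrier of zwitterions such as ergothioneine and carnitine. Wild-type libraries were at 7.85, 7.90 and 7.95 and knockout libraries at 8.17, 8.13 and 8.03. The lowest knockout library exceeded the highest wild-type library by only 0.08. The difference was 0.21 (standard error 0.0658, 95% interval 0.06 to 0.36), or 1.16-fold. Its call ended when wild-type library 1 (0.18), wild-type library 2 (0.21), knockout library 1 (0.18) or knockout library 2 (0.20) was left out, when no filter on low values was used, and by the adjusted p of the authors' deposited table. Slc22a15 lies 8.32 Mb from Prmt6 on chromosome 3, and of 297 tested genes within 20 Mb of Prmt6, 107 were called (36.0%), 58 higher and 49 lower.

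Slc22a18 (ENSMUSG00000000154.16, chr7:143473736-143499334, plus strand) encodes a carrier-like protein of the imprinted Kcnq1 domain. It stood at 5.54, 5.59 and 5.63 in wild type and at 5.47, 5.42 and 5.35 in the knockout. All 3 knockout libraries were below all 3 wild-type libraries, and limma did not call it. The difference was -0.17 (standard error 0.0577, 95% interval -0.30 to -0.04). The authors' deposited table gave -0.69.

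Slc22a23 (ENSMUSG00000038267.15, chr13:34179158-34345182, minus strand) encodes an orphan carrier whose substrate is not settled. Its libraries read 3.18, 3.27 and 3.31 in wild type and 3.29, 3.23 and 3.27 in the knockout, so that the genotypes overlapped, and the interval of the difference ran from -0.08 to 0.10. Slc22a17 (ENSMUSG00000022199.12, chr14:54906304-54913132, minus strand), the cell-surface receptor of lipocalin 2, was listed at 0 in all 6 libraries and was not tested.

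Without overlap between genotypes stood 6 of the 7 tested carriers, where 7318 of all tested genes (47.4%) had that property. The adjusted p of the authors' deposited table passed 0.05 for 3 of the 8 (Slc22a3, Slc22a4 and Slc22a5), and for 4798 genes of the whole tested set (31.0%). These counts too are a description, because the carriers were chosen with this contrast known. The difference on the deposited log2 scale was 0.757 of the authors' log2 fold change for Slc22a3 and 0.805 for Slc22a4. That ratio was 0.399 for Slc22a21, 0.245 for Slc22a18 and 0.0763 for Slc22a23, which stood at 3.18 to 3.31.

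**Figure D3:**
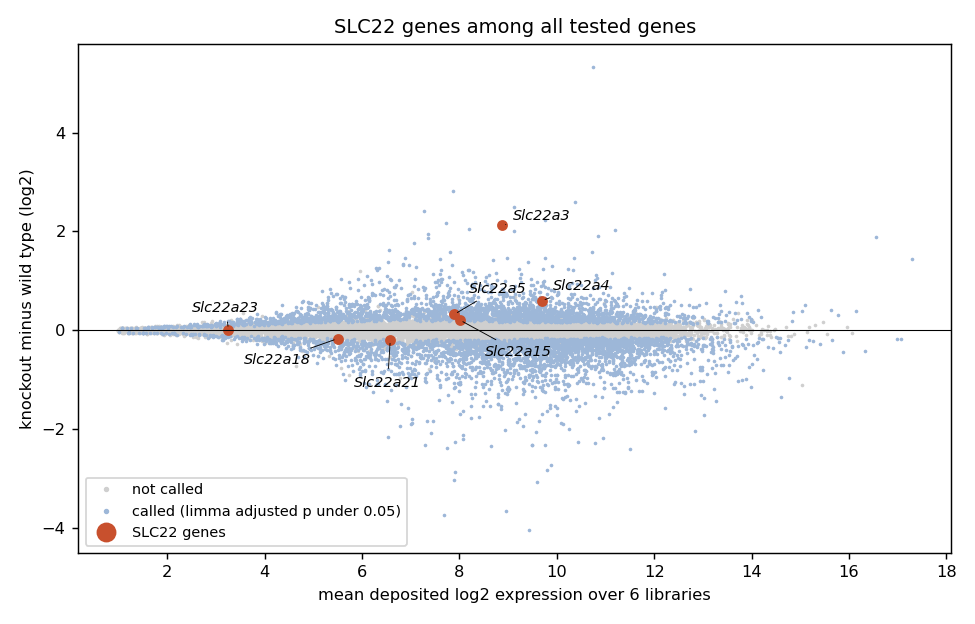
Difference between genotypes against mean level for the 15454 tested genes, both on the deposited log2 scale, with called genes in blue and the 7 tested SLC22 carriers in red. Slc22a3 lies near the upper edge at 2.12, and the other tested carriers lie between -0.19 and 0.60.

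The table holds 26 rows whose symbol starts with Slc22a, and 18 of these are not among the 8. Of the 18, 3 were listed at 0 in every library and 12 lay below the filter with values from -1.97 to 0.89. The remaining 3, Slc22a8, Slc22a19 and Slc22a13b-ps, were tested at levels from 1.28 to 2.90, and limma called 0 of them, with 0 at an unadjusted p under 0.05, 0 called in the authors' deposited table and differences of at most 0.0363 in size. Slc22a23, inside the set, stood at 3.18 to 3.31, and Slc22a19, outside it, at 2.80 to 2.90. Among the classical organic anion transporters, Slc22a6 (OAT1) stood at -1.49 to -1.48, Slc22a8 (OAT3) at 2.19 to 2.28 and Slc22a12 (URAT1) at 0.54 to 0.57. None of these 3 is among the 8.

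Slc22a3 belongs to the imprinted Igf2r domain, and in placenta its paternal copy is silenced by the long non-coding RNA Airn. The first base of Airn on the chromosome lies 233.6 kb beyond the last of Slc22a3, on the side of the Slc22a3 start. Airn is not listed under that name, nor is Kcnq1ot1, the corresponding RNA of the Slc22a18 domain. Of 11 other tested genes with any part within 500 kb of Slc22a3, 1 was called higher and 3 lower. Over all tested genes 15.0% were called higher and 18.0% lower. Without wild-type library 1 the lower count was 5. After quantile normalization 3 were higher. Park2, the ubiquitin ligase parkin, rose by 0.74, and its start lies 1667 kb from that of Slc22a3. Agpat4, an acyltransferase of phospholipid synthesis, fell by 0.71 (limma adjusted p = 8.94e-05). Sod2, the mitochondrial superoxide dismutase, fell by 0.85 and Tcp1, a chaperonin subunit, fell by 0.27. The adjacent Igf2r had a difference of -0.04 and Map3k4 of -0.07, and neither was called. Slc22a3 had a wider difference than each of these 11 genes. That is a description only, because Slc22a3 was chosen with this contrast known.

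Around the OCTN cluster the calls went both ways. The shares over all tested genes, for the counts of this paragraph, were 15.0% called higher and 18.0% called lower. Within 500 kb of Slc22a4, 3 of 10 other tested genes were called higher, Slc22a5 among them, and 2 lower. The lower count was 1 after quantile normalization. It was 3 in several other settings, among them intensity-dependent centring, limma without trend and leaving out wild-type library 1. The kinesin subunit Kif3a rose by 0.55 and the collagen prolyl hydroxylase subunit P4ha2 by 0.36, and the interferon-response factor Irf1 fell by 0.50. Pdlim4, a cytoskeletal adaptor, differed by 0.04 and was not called. Near Slc22a18, 8 of 16 tested genes were called higher and 1 lower, among them the decoy receptor Tnfrsf26 (0.85), the G protein-coupled receptor Mrgpre (0.70), the cholesterol enzyme Dhcr7 (0.55) and the tetraspanin Tspan32 (-0.63). Slc22a18 itself was not called. Without knockout library 2, 5 of the 16 were called higher. Around Slc22a17, 9 of 26 tested genes were called lower, and 5 without knockout library 2. Around Slc22a23 1 of 9 was called higher and 3 lower, the latter count falling to 1 without wild-type library 1 or 3 or knockout library 1 or 3, and 1 of 3 tested genes near Slc22a15 was called, the immunoglobulin superfamily gene Igsf3 at 0.21.

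**Figure D4:**
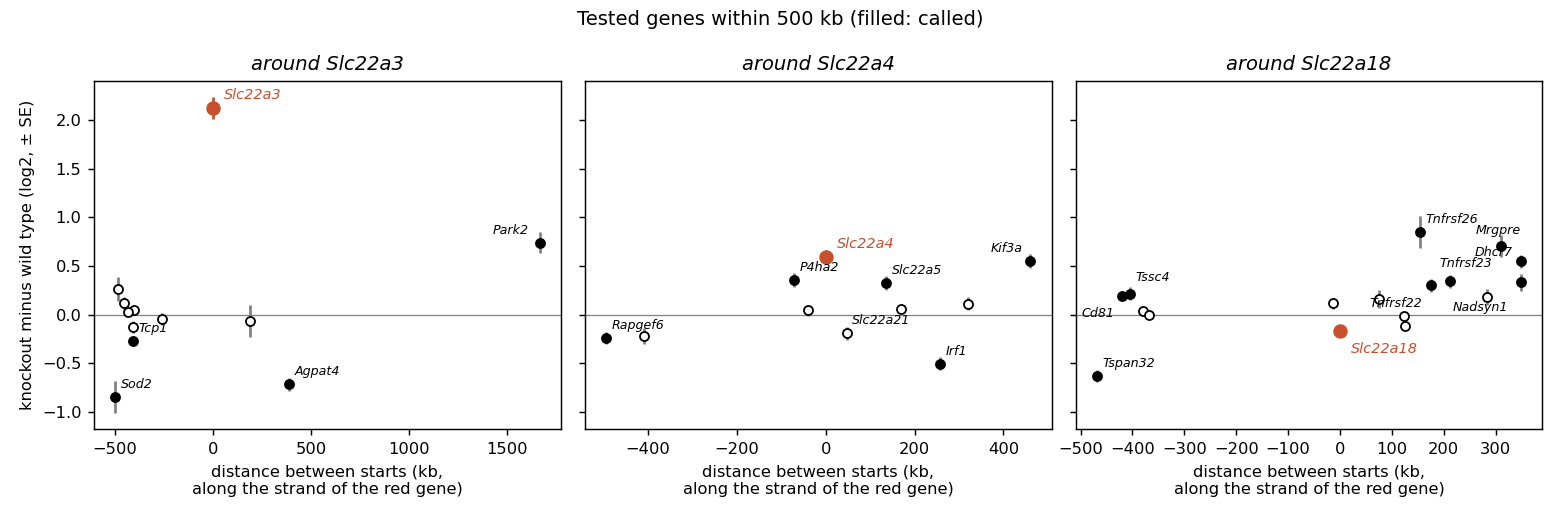
Differences between genotypes, on the deposited log2 scale, with SE, against the distance between start sites in kb. Shown are tested genes with any part within 500 kb of Slc22a3, Slc22a4 or Slc22a18. Filled points were called and the carrier is red. Slc22a3, chosen with this contrast known, stands at 2.12, and Park2 is the highest of its 11 tested neighbours at 0.74.

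Of the imprinted genes of the Igf2r and Kcnq1 domains, 11 of 18 were tested, 2 were called higher, 1 lower and 8 not called, with a median difference of 0.03. Tspan32 had means of 12.2 ± 0.0531 and 11.6 ± 0.0854 (SD, n = 3 each) and fell by 0.63 (limma adjusted p = 8.56e-05). The tetraspanin Cd81 rose by 0.20 (limma adjusted p = 0.0195), a call that ended without wild-type library 3 (0.17), knockout library 2 (0.17) or knockout library 3 (0.19). Tssc4 rose by 0.21 (limma adjusted p = 0.0381), and its call ended without wild-type library 1 or 3, or knockout library 2 or 3, with differences from 0.17 to 0.21, and with no filter on low values (limma adjusted p = 0.0563). The cell-cycle inhibitor Cdkn1c differed by 0.12 and was not called. Without knockout library 3, the number of called genes of this list was 1.

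Carnitine is the cargo of Slc22a5 and Slc22a21, and a list of 18 genes covers its synthesis, its acyl transfer and the oxidation it serves. Of the 15 tested, 2 rose, 4 fell and 9 were not called, with a median difference of -0.04. Crat, the carnitine acetyltransferase, stood at 9.02, 9.08 and 9.06 in wild type and at 8.30, 8.35 and 8.40 in the knockout, and fell by 0.70 (limma adjusted p = 5.41e-05). The genotypes did not overlap. Cpt1a, the carnitine palmitoyltransferase of the outer mitochondrial membrane, fell by 0.49 (limma adjusted p = 0.000468), with means of 9.59 and 9.09. Acadm, the medium-chain acyl-CoA dehydrogenase, fell by 0.48 (limma adjusted p = 0.00112). Acsl1, which activates long-chain fatty acids, went the other way and rose by 0.76 (limma adjusted p = 8.33e-05), to a mean of 11.8 in the knockout. Called too were Slc25a29, a mitochondrial carrier now known for basic amino acids, at 0.55 and Hadha, a subunit of the trifunctional protein, at -0.18.

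Other carriers of cations, choline, thiamine, nucleosides and monoamines form a list of 22 genes outside SLC22. Among the 15 tested, 3 rose, 1 fell and 11 were not called, and the median difference was 0.01. Slc18a1 (VMAT1), a vesicular monoamine transporter, was at 8.37, 8.39 and 8.13 in wild type and 7.68, 7.70 and 7.59 in the knockout, and fell by 0.64 (limma adjusted p = 0.000463). All its knockout libraries were the lower ones. The thiamine transporter Slc19a2 rose by 0.44 (limma adjusted p = 0.00619) and the choline transporter Slc44a1 by 0.19 (limma adjusted p = 0.0144). Slc18a2 (VMAT2) rose by 0.43 (limma adjusted p = 0.0269), and its call ended when wild-type library 1 or 3, or knockout library 2 or 3, was left out, with differences from 0.34 to 0.41, and in limma without trend (limma adjusted p = 0.0550).

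Histamine and monoamines are cargo of Slc22a3, and of 17 genes for their synthesis, breakdown and receptors 10 were tested. limma called 0 higher, 3 lower and 7 neither way, with a median difference of -0.01. At an unadjusted p under 0.05, 1 was higher, and the authors' deposited table called 0 higher. Hdc, the histidine decarboxylase that makes histamine, stood at 9.95, 9.50 and 9.52 in wild type and at 7.69, 8.07 and 8.41 in the knockout. It fell by 1.60 (limma adjusted p = 0.000228), and the genotypes did not overlap. Hnmt, the histamine N-methyltransferase, had levels of 7.07, 7.12 and 7.40 against 6.17, 6.22 and 6.51 and fell by 0.89 (limma adjusted p = 0.000444). Slc22a3 therefore was higher in the same libraries in which the enzymes that make and methylate histamine were lower.

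Mast cells and basophils make histamine, and their summed marker level ran from 9.37 to 9.90 in wild type and from 9.05 to 9.25 in the knockout. Most of that sum was Cpa3, with means of 9.30 and 8.71. Of the 3 tested mast cell and basophil markers, 1 was called higher (Ms4a2, 0.17) and 1 lower (Cpa3, -0.60). Mcpt8, with means of 7.26 and 7.14, was not called. Prss34 and Fcer1a were below the filter. The Cpa3 call ended without wild-type library 1 (-0.44) or knockout library 3 (-0.46), and the Ms4a2 call without wild-type library 2 (0.15), knockout library 1 (0.15) or knockout library 3 (0.14). The mast cell proteases Tpsb2 and Cma1 were listed at 0. Macrophage markers summed to 12.4 to 12.8 in wild type and 11.3 to 11.4 in the knockout. Vcam1 fell by 2.17 and Emr1, a macrophage surface receptor, by 0.33, the latter not called after quantile normalization (-0.25), while the complement genes C1qa, C1qb and C1qc lay low, at about 1.09, 2.77 and 2.82. B-cell markers summed to 9.54 to 9.68 and 8.32 to 8.69, where Cd79b fell by 1.15. The summed stromal and endothelial markers, 11.2 to 11.5 and 10.7 to 11.0, were nearly all Pecam1, which leukocytes also express. Pecam1 fell by 0.41, a call that ended without wild-type library 3 (-0.31) or knockout library 1 (-0.30), while Col1a1, Col1a2, Cxcl12 and Lepr differed by at most 0.03 and were not called, and Cdh5 was below the filter at -0.02. Of the 9 tested L-GMP markers, 2 were called higher and 1 lower: the granule proteases Elane and Ctsg rose by 1.45 and 0.51, and the Fc receptor gene Fcgr2b fell by 0.88. The authors' deposited table called 3 of the 9 higher and 2 lower. Kit differed by -0.29 and was not called by limma. Mpo, the myeloperoxidase, differed by -1.11 with wide scatter between libraries (13.3 to 15.7 in the knockout) and was not called. The part of these marker shifts in the differences of the SLC22 carriers was not tested.

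Exporters and carriers of organic anions outside SLC22 form a list of 19 genes, of which 14 were tested, 3 rose, 4 fell and 7 were not called, with a median difference of -0.01. Abcc5 (MRP5), an exporter of cyclic nucleotides, had means of 10.1 ± 0.0142 and 9.23 ± 0.0488 (SD, n = 3) and fell by 0.82 (limma adjusted p = 2.43e-05). Abcc1 (MRP1), the glutathione-conjugate exporter, fell by 0.55 (limma adjusted p = 0.000119). Slco3a1 fell by 0.32 (limma adjusted p = 0.00123), and Slco4a1, an uptake carrier of thyroid hormone, rose by 0.53 (limma adjusted p = 0.00249). Calls were thus made in both directions among exporters and importers alike.

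Lcn2, the iron-siderophore binding lipocalin 2 that Slc22a17 takes up, stood at 10.7, 10.7 and 10.9 in wild type and at 9.56, 9.80 and 9.65 in the knockout, and fell by 1.09 (limma adjusted p = 2.80e-05). Its receptor Slc22a17 was listed at 0, the alternative receptor Lrp2 (megalin) differed by 0.07 and Bdh2, the enzyme that makes the mammalian siderophore, by 0.05, neither called. Of the SV2-type relatives, carrier-like proteins of the same superfamily, limma called 0 of 4 tested genes, with 2 higher at an unadjusted p under 0.05 and 0 called in the authors' deposited table. Their median difference was 0.05.

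**Figure D5:**
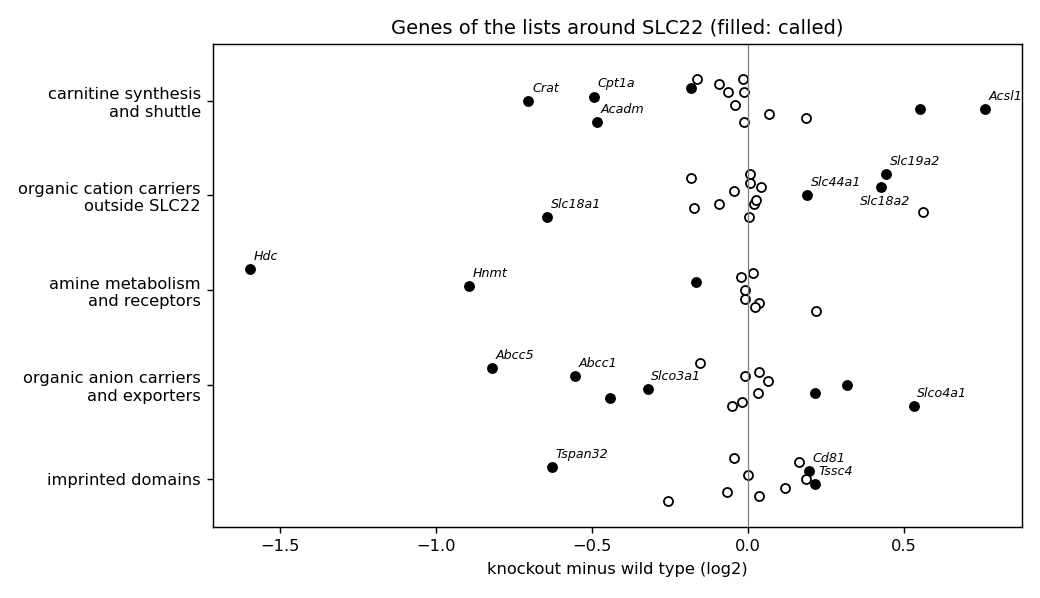
Difference between genotypes on the deposited log2 scale for every tested gene of 5 lists, 1 row per list, with called genes as filled points. Most points lie close to 0, and Hdc, which fell by 1.60, is the lowest point of the amine list.

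The genes whose levels over the 6 libraries were most like those of Slc22a3, among the 7726 genes in the upper part of the tested genes by mean level, from their median up, were Fam174b (Pearson r = 0.999), the co-chaperone gene Bag3 (0.999), the transglutaminase gene Tgm1 (0.998), the zinc-finger gene Zfp574 (0.998) and Chil3 (0.997), a chitinase-like protein of myeloid cells. Their differences between genotypes were 1.25, 0.73, 0.38, 0.33 and 1.89. All these points share the libraries and the genotype split, and 1033 genes had an r above 0.9. By the same measure r with Slc22a3 was 0.991 for Slc22a4, 0.879 for Slc22a5 and 0.897 for Slc22a15, and it was -0.887 for Slc22a18, -0.901 for Slc22a21 and 0.0433 for Slc22a23.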

How the data were processed

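Poly(A) RNA from 6 libraries was measured, 3 per genotype. Reads had been handled with Trim Galore, kallisto and HOMER (no versions given) on GRCm38, per the submitters' processing notes. Expression values were deposited by the authors on a log2 scale, written by HOMER per the file headers, and the transformation is not named. The same table gives the authors' deposited log2 fold change with its p-value, raw and adjusted, and does not say which test was used. The annotation behind the counting is not stated there. Read depth is unknown, so no counting interval is given.

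The 8 carriers, the gene lists and the markers were chosen with earlier results of these data known. The table holds 30037 named genes and 1 row without a name, which was left out; 7932 genes are listed at 0 in all 6 libraries. The 15454 genes that reached a value of 1 in 3 or more libraries entered a fit by limma 3.58.1 (R 4.3.3) with a mean-variance trend, two-sided, on the deposited values, and p-values were adjusted by Benjamini-Hochberg over all of them. Of 15 pairs of libraries, 0 shared identical values in over 1% of the tested genes. The script was tested on simulated data. Tables were made with Python 3.11.15, pandas 2.3.3 and numpy 2.4.6. Coordinates are GENCODE M21 on GRCm38, promoters RefSeq on GRCm38.p6. Named were the 8 carriers, other Slc22a rows by count, Prmt6, up to 4 called genes of each list with the smallest p, and the 5 genes most like Slc22a3 by Pearson r. Neighbouring genes, markers, Slc25a29, Hadha, Cdkn1c and other uncalled genes were named after their values were seen. A few results under this rule are not reported here. A summed marker level is the log2 of the sum of linear values. Alternatives were other filters, quantile, median and intensity-dependent centring, limma settings, a replicate block, each library left out, and the deposited adjusted p.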

Additional observations from a re-analysis of the deposited data

How the results depend on the processing

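Slc22a3, Slc22a4 and Slc22a5 were called in all 15 alternatives, and leaving out 1 library each gave 2.01 to 2.20, 0.54 to 0.65 and 0.26 to 0.36. Slc22a15 was called in 8 of 15. Slc22a18 was called lower in 5 and Slc22a21 in 3 of 15, so the number of carriers called lower, 0 in the main analysis, was 2 with values of at least 5, 1 after quantile normalization, 2 after intensity-dependent centring, 2 with limma without trend and 1 with robust limma. Slc22a23, not called in any, turned to -0.0115 after quantile normalization and -0.011 after intensity-dependent centring, ran from -0.0279 to 0.0362 with 1 library left out, and has no value with the filter at 5. The cause was not tested. Called genes of the imprinted list ran from 1 to 4 with 1 library left out, and called genes overall from 3888 to 4598. Where 2 libraries of a genotype remained, the spread was pooled over both genotypes. Quantile normalization gave 2827 genes higher and 2378 lower, against 2324 and 2778. Median centring was chosen after the data had been seen. With the replicate number as a block, 5074 genes were called and Slc22a15 lost its call at an unchanged difference of 0.2082. Same-numbered libraries deviated together with correlations of 0.0948, 0.0727 and 0.172, which does not pair them, although each correlated best with its own number. No depth is known for these values.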
